A study of Mus musculus with 6 samples.

Results

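Interleukins and interleukin receptors were taken as the genes whose symbol in the array's own annotation begins with Il and a digit. Il10, Il19, Il20, Il22, Il24 and the receptor chains Il10ra, Il10rb, Il22ra1 and Il22ra2 were left out, and Il20ra was kept. Also left out were Il2 and the Il2, Il4, Il7 and Il21 receptor chains of the common gamma chain group. The rule found 65 genes, measured by 95 probes, among 27671 gene names and 41174 probes. The brightest probe by its mean over 6 arrays stood for each gene. The arrays compared MR 4-25, a derivative of the mouse T lymphoma line S49 that had recovered from mannitol, with S49 Neo, its parental line, in a series on hyperosmotic changes in lymphoid cells. Each line had 3 samples and 1 array per sample. Both lines were grown in RPMI-1640 medium with heat-inactivated fetal calf serum, glutamine, penicillin and streptomycin, and were left untreated. The labels give 1 line of each kind and do not say whether MR 4-25 is a clone, so its recovery and any other difference between these lines cannot be told apart. The labels do not say that the replicates were separate cultures, so a p-value here rests on the scatter among 3 samples of a line, and that scatter may be technical.

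Interleukins are secreted proteins through which leukocytes signal to each other and to tissue cells. Ligands of the Il1 family act through receptors with Toll-like intracellular domains and the adaptor Myd88, those of the Il17 family through receptors that recruit the adaptor encoded by Traf3ip2, and type 1 cytokines through receptor chains that carry Jak kinases, which activate Stat transcription factors. T cells are known both as a source of these ligands, such as Il4 and Il13 in T helper cells, and as their targets.

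The 75th percentile of the array signal was 872, 912 and 521 intensity units in MR 4-25 and 988, 844 and 917 in Neo, and 61.3% to 76.2% of probes were well above background. Levels below are log2 signals relative to that percentile, so 0 is the level of the 75th percentile. MR 4-25 1, MR 4-25 2, Neo 1 and Neo 2 were on slide 1, and MR 4-25 3 and Neo 3 on slide 2. Signal varied with position: the median log2 signal of spots in rows up to 266 of 532 minus that in later rows was −0.84, −0.71 and 1.61 in MR 4-25, against −0.97, −0.49 and 0.64 in Neo. The slide 1 arrays were thus dimmer in the upper rows, and the slide 2 arrays in the lower rows. All 10 T cell markers were well above background on all 6 arrays. Their summed level was 7.93 to 8.08 in MR 4-25 and 8.07 to 8.29 in Neo, and the summed levels of B cell, myeloid, NK cell, fibroblast or endothelial and erythroid lists were at most 1.39 in MR 4-25 and 1.05 in Neo. On all arrays 4 of 8 B cell, 7 of 10 myeloid or mast cell, 2 of 5 NK cell, 5 of 8 fibroblast or endothelial and 2 of 4 erythroid markers were well above background, and the NK cell receptor Klrk1 was so on none. In the limma test 1 T cell and 1 B cell marker fell, and the others did not pass. The part of these markers in the differences was not tested.

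**Figure D1:**
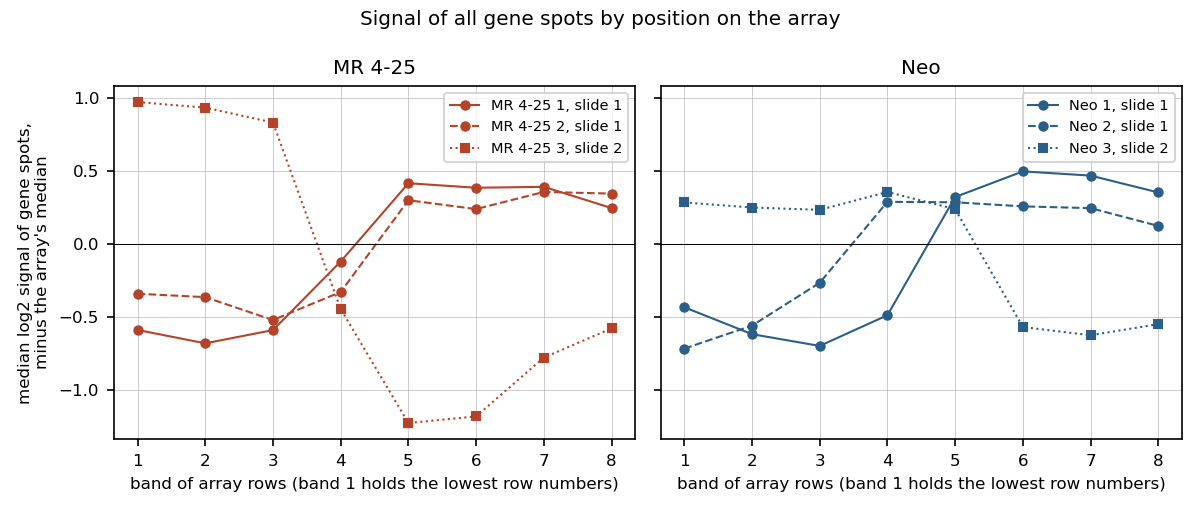
Median log2 signal of all gene spots in 8 bands of array rows, minus the array's median, for the 3 MR 4-25 arrays (left) and the 3 Neo arrays (right); circles are slide 1 and squares slide 2. The slide 2 arrays are dimmer in the later bands, with the lowest band of MR 4-25 3 at −1.22, and the slide 1 arrays are brighter there.

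In the main fit, which does not pair the arrays, Il17re, a receptor chain for the epithelial cytokine Il17c, fell in MR 4-25. None of the others passed that test. With the replicate number as a block Il17re did not pass (limma adjusted p = 0.104), and over all genes 1 rose and 0 fell. In bulk RNA, fewer cells with a transcript and less of it per cell cannot be told apart. Of the 65 genes, 48 had signal well above background on 3 or more of the 6 arrays and were tested with limma, as MR 4-25 minus Neo, with adjustment over 21342 genes. At an adjusted p of 0.05, 0 rose, 1 fell and 47 did not pass. Over all genes 0.675% rose and 0.558% fell, 1.23% in all. At an unadjusted p under 0.05, 6 of the 48 were higher and 2 lower, against 5.93% and 7.33% of all genes. The arrays of the lines did not overlap for 8 genes that were higher and 4 that were lower in MR 4-25, against 11.2% and 13.1% of all genes.

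The difference was positive for 37 of the 48 and negative for 11, with a median of 0.33, against 0.01 over all genes. That median was 0.11 on slide 1, against −0.02 over all genes there. On slide 2, with 1 array of each line, it was 0.80, and the median over all genes was not taken there. The lowest level of these genes was −6.97 on MR 4-25 3 and −8.42 on Neo 3, and the part of this in the medians was not tested. Spread was wide: the median SD of the tested genes was 0.80 in MR 4-25 and 0.42 in Neo, against 0.42 and 0.23 over all genes. Each gene named for a small p is therefore given with its difference within each slide.

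**Figure D2:**
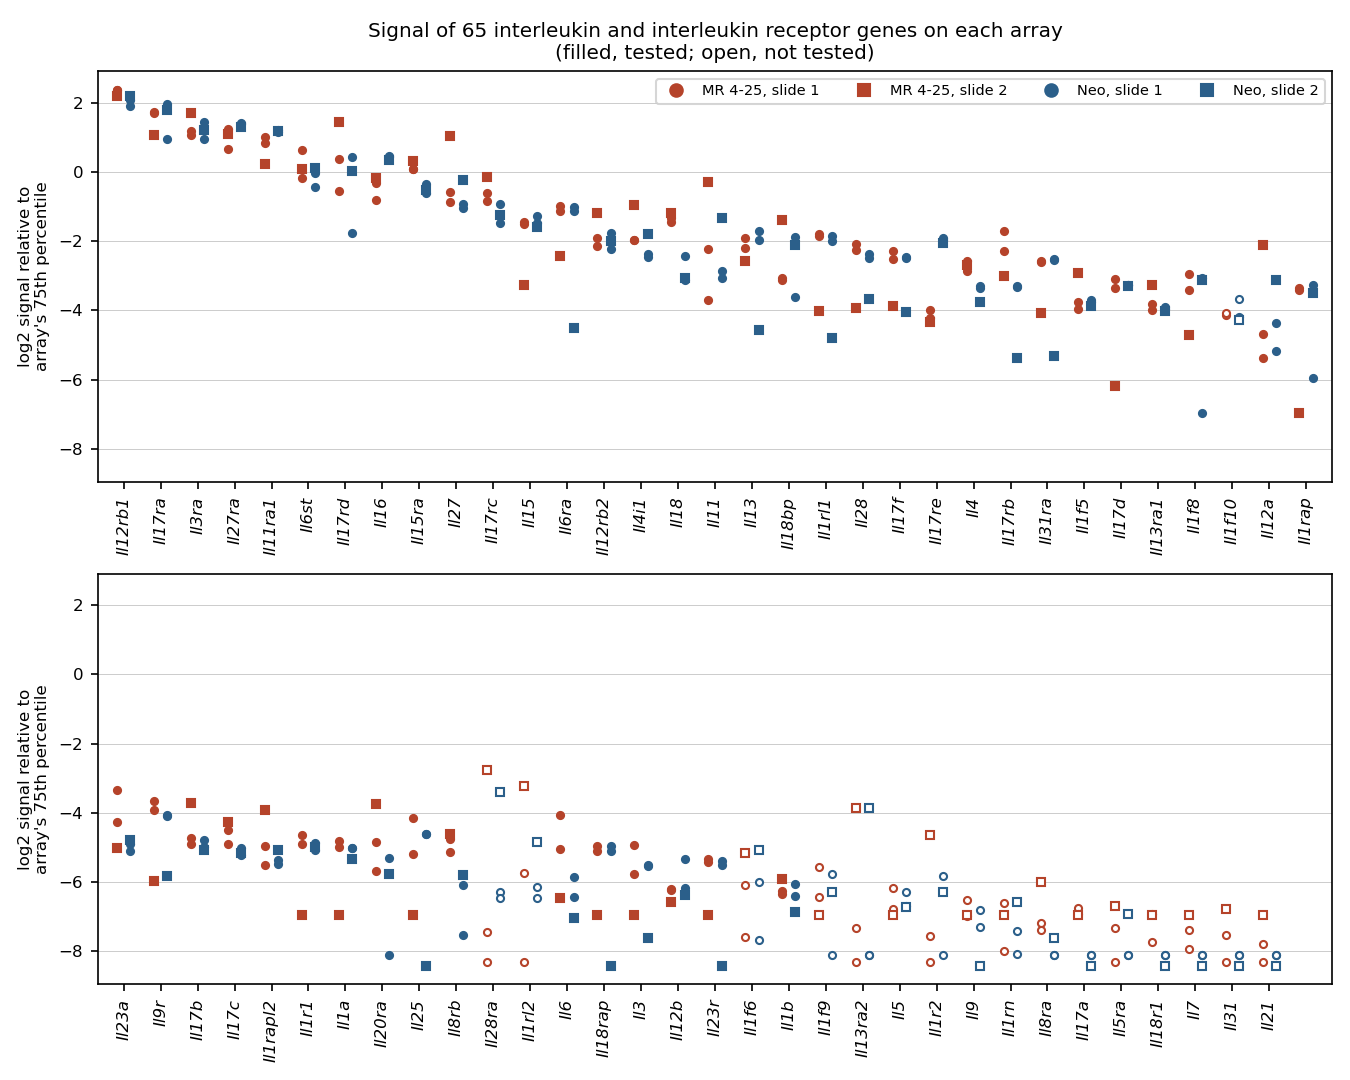
Log2 signal relative to the array's 75th percentile (y axis) of all 65 genes, ordered by mean level, on each MR 4-25 array (left of each pair) and each Neo array (right); circles are slide 1, squares slide 2 and open symbols genes that were not tested. Signals depend on the probe, so only the arrays of 1 gene can be compared; for 15 genes both squares lie below all circles.

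**Figure D3:**
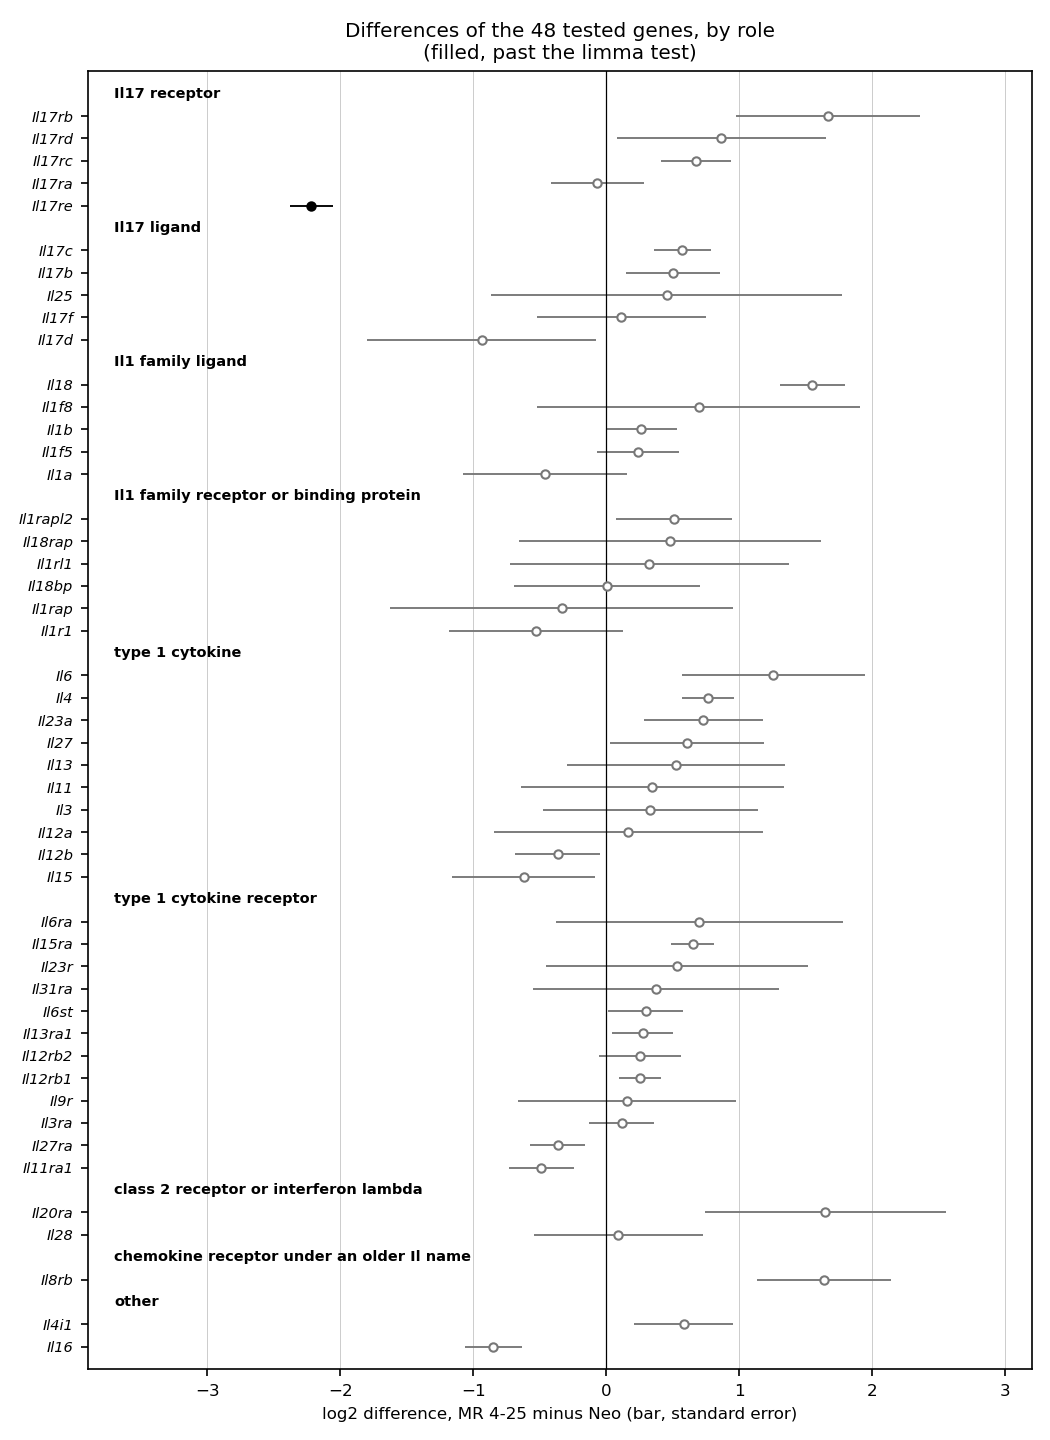
Log2 difference, MR 4-25 minus Neo, with its standard error, for the 48 tested genes grouped by role. Il17re at −2.22 is the filled point, past the limma test; the others range from −0.94 to 1.66.

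Among the 5 chains of the Il17 receptor family, all well above background on all 6 arrays, 1 fell and 4 did not pass. Il17re had −4.00, −4.23 and −4.33 in MR 4-25, against −1.90, −1.95 and −2.06 in Neo. Every MR 4-25 array lay below every Neo array, and within each line the arrays of both slides were close. The means were −4.19 ± 0.17 in MR 4-25 and −1.97 ± 0.08 in Neo (SD, n = 3 each), a log2 difference of −2.22 ± 0.16 (SE, limma adjusted p = 0.0117), or 4.65-fold lower in MR 4-25. The difference was −2.19 within slide 1 and −2.28 within slide 2, and a fit that blocked on slide kept the call (adjusted p = 0.0142). The replicate block ended it (adjusted p = 0.104). It did not pass with normexp background correction, where it was −0.69 (adjusted p = 0.519). It also missed the threshold without MR 4-25 1 (adjusted p = 0.0655), MR 4-25 2 (0.0737), Neo 1 (0.0954), Neo 2 (0.0966) or Neo 3 (0.0658), and passed without MR 4-25 3 (0.0210). With position matching, described below, MR 4-25 had −4.44, −4.78 and −3.48, against −1.96, −1.93 and −2.12 in Neo. The difference was then −2.23 and did not pass (adjusted p = 0.0613). Il17re passed in 12 of 20 alternative settings. The probe lies at chr6:113631082-113631141 of build mm7 and was designed to transcript variant 1. A second probe, designed to a cDNA clone, was not above background on any array.

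Il17rb, a chain for the cytokine Il25, had the largest positive difference of the tested genes and is described for that, after its values were seen. It had −1.70, −2.29 and −3.02 in MR 4-25, against −3.29, −3.33 and −5.37 in Neo. The lines did not overlap, but the slide 2 array was the lowest of each line and Neo 3 was the lowest of all 6. The difference of 1.66 ± 0.69 did not pass (adjusted p = 0.398), with 1.32 within slide 1 and 2.35 within slide 2. Its probe was designed to a short isoform, and a probe to the reference transcript was not above background on any array.

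Il17rc, which pairs with Il17ra for Il17a and Il17f, had −0.61, −0.85 and −0.15 in MR 4-25 and −1.48, −0.91 and −1.24 in Neo. The lowest MR 4-25 array and the highest Neo array were 0.06 apart, and the difference of 0.68 ± 0.26 did not pass (adjusted p = 0.366), with 0.47 within slide 1 and 1.10 within slide 2. With position matching the lines overlapped, with MR 4-25 2 at −0.97 and Neo 2 at −0.82. A second probe of Il17rc gave 0.61. Il17ra, the chain shared by several of these receptors, had 1.74, 1.70 and 1.07 in MR 4-25 and 1.96, 0.97 and 1.79 in Neo. The lines overlapped and the difference was −0.07 ± 0.35 (adjusted p = 0.955). Il17rd, also known as an inhibitor of fibroblast growth factor signalling, differed by 0.86 ± 0.78 and ranged from −0.56 to 1.46 in MR 4-25 and from −1.77 to 0.43 in Neo. Its other, dimmer probes gave 0.35 and −0.42.

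Of the 6 ligands of the family, Il17a was not above background on any array, and 0 of the 5 tested passed. Il17c, the ligand of the receptor that holds Il17re, had −4.51, −4.92 and −4.27 in MR 4-25 and −5.01, −5.22 and −5.18 in Neo. The arrays did not overlap, with 0.10 between the nearest arrays of the lines, and the difference was 0.57 ± 0.22 (adjusted p = 0.353), or 0.40 within slide 1 and 0.91 within slide 2. With position matching the lines overlapped, with MR 4-25 2 at −5.83 and Neo 1 at −5.15. Il17f, a relative of Il17a made by T cells, had −2.29, −2.50 and −3.86 in MR 4-25, against −2.46, −2.49 and −4.04 in Neo, so its values followed the slides and not the lines. Il25, Il17b and Il17d had differences of 0.45, 0.50 and −0.94.

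**Figure D4:**
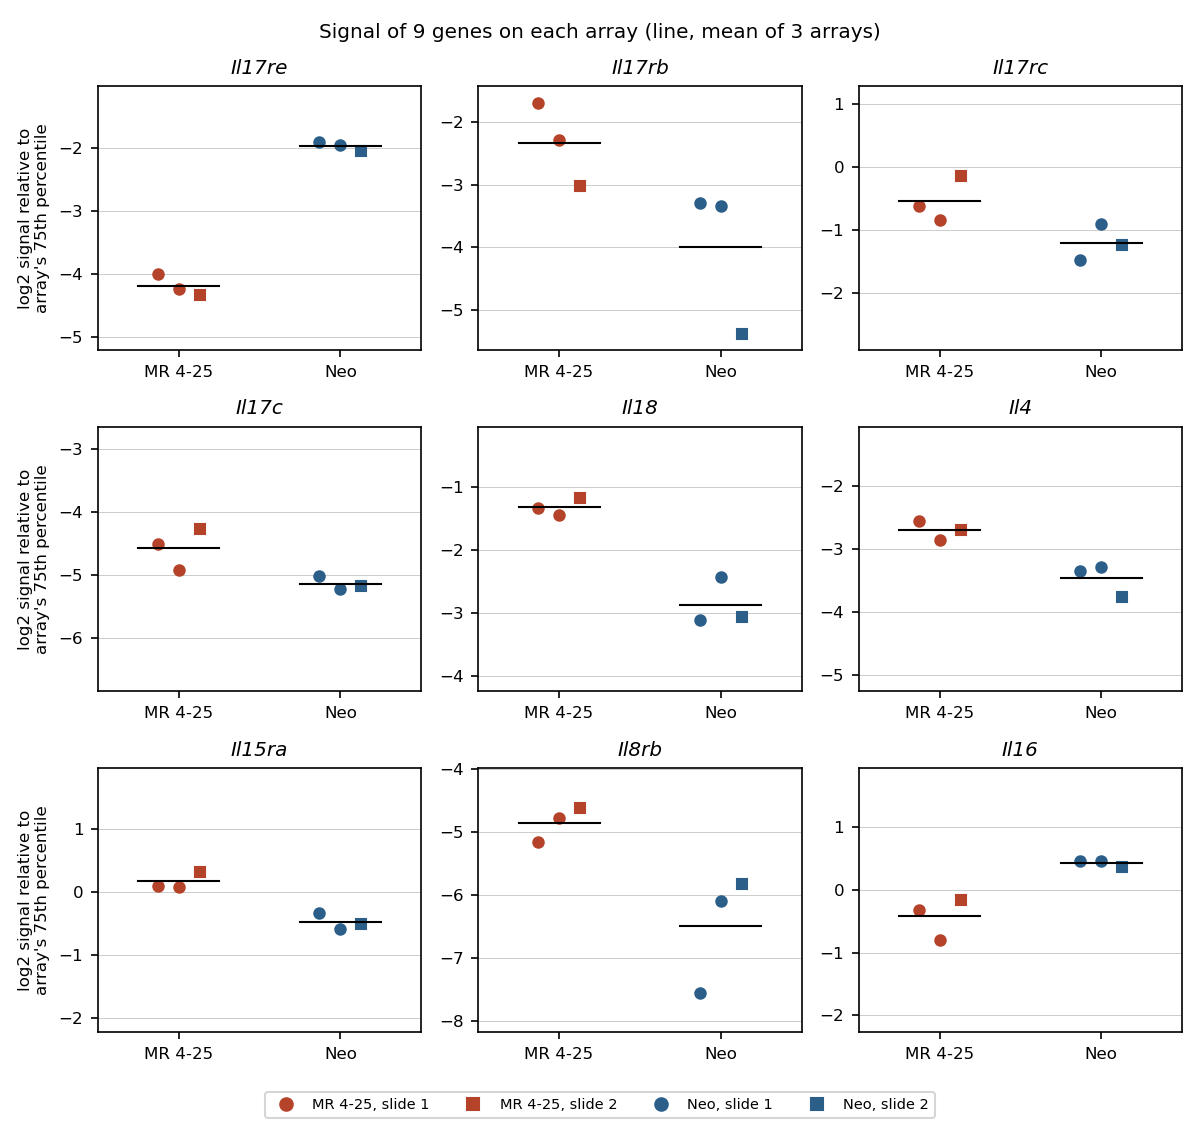
Log2 signal relative to the array's 75th percentile of 9 genes on each array, MR 4-25 left and Neo right; circles are slide 1, squares slide 2, and a horizontal line is the mean of 3 arrays. The Il17re means are −4.19 in MR 4-25 and −1.97 in Neo, and the nearest arrays of MR 4-25 and Neo are 0.06 apart for Il17rc.

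Of the 9 ligands and antagonists of the Il1 family, 5 were tested and 0 passed. Il18, a cytokine that is cleaved by caspase 1 and induces interferon gamma, came nearest. Its probe is printed 10 times on each array and joins sequence that lies 2129 bases apart in the genome at its ends (chr9:50557947-50560075, mm7), so it crosses an intron. The probe is shown, with that of Il4, because their repeated spots measure 1 sequence at different positions of the same array:
Il18: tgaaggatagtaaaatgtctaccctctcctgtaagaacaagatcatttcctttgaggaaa
Il4: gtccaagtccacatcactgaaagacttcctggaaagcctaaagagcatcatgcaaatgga

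Il18 had −1.33, −1.44 and −1.18 in MR 4-25, against −3.11, −2.42 and −3.07 in Neo. All MR 4-25 arrays were above all Neo arrays. The difference was 1.55 ± 0.24, or 2.93-fold, and missed the threshold (limma adjusted p = 0.0677), with 1.38 within slide 1 and 1.89 within slide 2. It passed with quantile normalization (adjusted p = 0.0444), among genes above background on all 6 arrays (0.0280), with weights for the quality of each array (0.0161) and with the median over spots (0.0331), where the difference was 1.17. The array quality weights called 942 of all genes higher, against 144 in the main fit. Counting position matching, Il18 passed in 5 of 20 alternative settings. In the other 15 the adjusted p was up to 0.295, with 0.268 under normexp, 0.210 with the replicate block, 0.187 within slide 1, 0.107 without a filter and 0.118 to 0.295 when an array was left out.

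Relative to the 75th percentile of the array, every MR 4-25 array lay above every Neo array at 9 of the 9 spots of Il18 that were unmasked on all arrays. In unscaled intensity the order did not hold at every spot: in row 270 MR 4-25 3 had 115, against 210, 166 and 159 in Neo. In MR 4-25 the median spot intensity was 353, 349 and 208, with spots from 251 to 413, from 275 to 394 and from 115 to 344. In Neo the median was 173, 157 and 151, with spots from 44.4 to 210, from 54.6, a masked spot, to 169 and from 40.1 to 170. The low spots of Neo 1 lay in the upper rows, where the mean level was −3.80, against −2.42 in the lower rows. Those of Neo 3 lay in the lower rows, with −3.58 there and −2.55 in the upper rows. Averaged over the arrays of each line, Il18 differed by 1.67 in the upper rows and 1.43 in the lower rows. With position matching, in which the signals of each region of an array were matched to those of the whole array, the difference was 1.53 and passed (adjusted p = 0.0306).

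**Figure D5:**
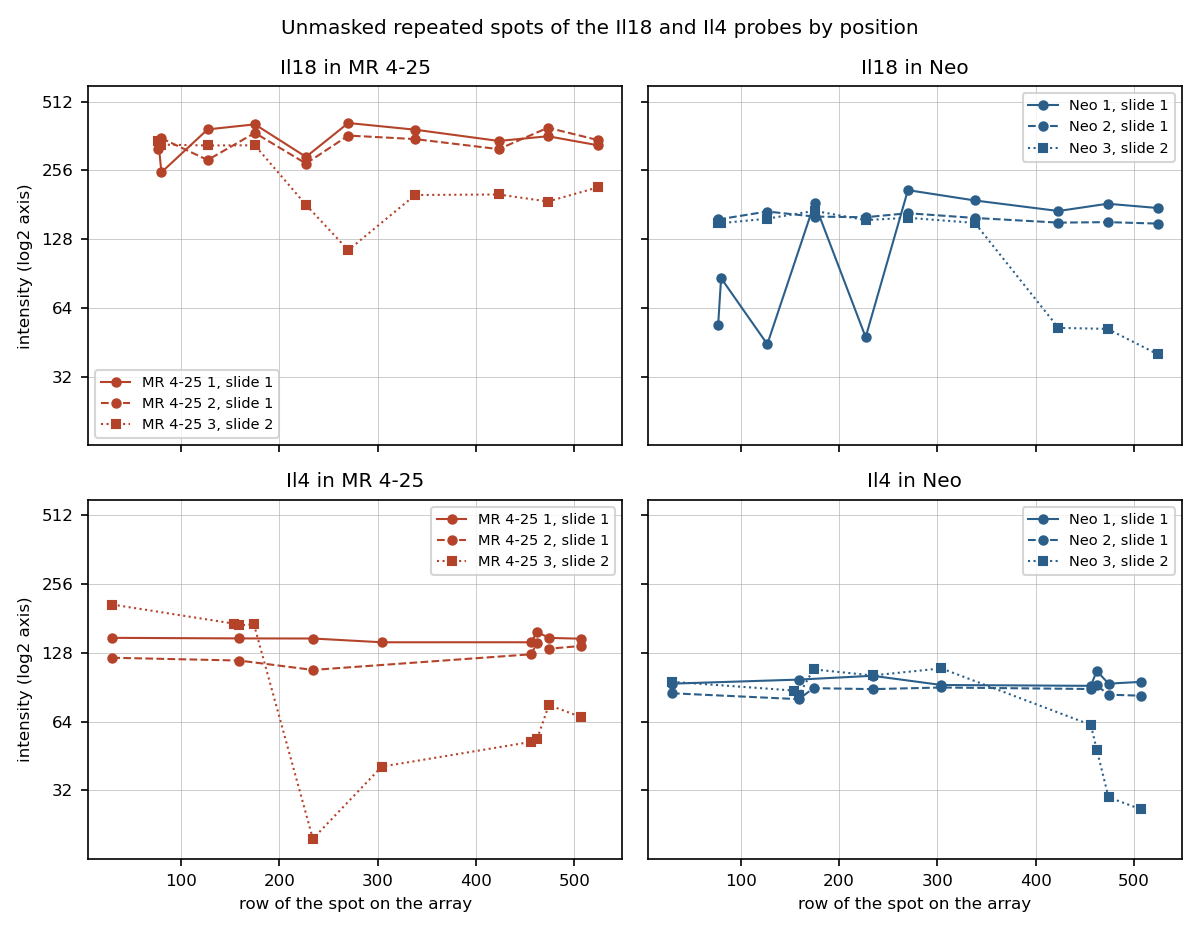
Intensity of unmasked spots (log2 axis) of the Il18 probe (top) and the Il4 probe (bottom) against the row of the spot, for MR 4-25 (left) and Neo (right); circles are slide 1 and squares slide 2. Il18 spots of MR 4-25 lie at 115 or above, and the spots of Neo 1 fall as low as 44.4 in the upper rows and those of Neo 3 as low as 40.1 in the lower rows.

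The other ligands of the family did not pass. Il1a, a cytokine released from damaged cells, differed by −0.46 ± 0.62. It was at −4.98 and −4.82 on the slide 1 arrays of MR 4-25 and at the lowest value of its array, −6.97, on MR 4-25 3, against −5.02, −5.04 and −5.33 in Neo. Il1b, its relative that is released by inflammasomes, differed by 0.26 ± 0.27, and its levels of −6.35 to −5.91 in MR 4-25 and −6.87 to −6.05 in Neo overlapped. Il1f5 and Il1f8 differed by 0.24 and 0.69. Il1rn, the receptor antagonist, was not above background on any array.

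Of 9 receptors and binding proteins of the Il1 family, 6 were tested and 0 passed, with differences from −0.53 to 0.51. Il1rl1, the receptor of Il33, had −1.83, −1.80 and −4.01 in MR 4-25, against −1.98, −1.85 and −4.79 in Neo. On slide 1 the lines were at most 0.18 apart, and both slide 2 arrays lay below all of them. These values are from a probe designed to transcript variant 1, whereas the brighter of the probes to variant 2 had −7.69 to −4.27 in MR 4-25 and −6.34 to −5.11 in Neo. Il18r1, the ligand-binding chain for Il18, was not above background on any array, and its partner Il18rap differed by 0.48 ± 1.14. Il18rap was at the lowest value of both slide 2 arrays, −6.97 on MR 4-25 3 and −8.42 on Neo 3. Il18bp, a soluble inhibitor of Il18, differed by 0.00 ± 0.70. Il1r1, the signalling receptor of Il1a and Il1b, differed by −0.53 ± 0.65, and Il1rap, its accessory chain, by −0.34 ± 1.29, each with MR 4-25 3 at −6.97 and the lowest of the 6 arrays. Il1rapl2, a relative of these chains known from neurons, differed by 0.51 ± 0.44.

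Among 15 cytokines of the type 1 family 10 were tested, of which 0 passed. Their differences ranged from −0.62 to 1.26. Il4, the cytokine that drives T helper cells towards type 2 responses, had −2.56, −2.85 and −2.69 in MR 4-25, against −3.35, −3.28 and −3.76 in Neo. The lines did not overlap, and the difference was 0.77 ± 0.20, or 1.70-fold (limma adjusted p = 0.195), with 0.61 within slide 1 and 1.07 within slide 2. Its probe, at chr11:53569331-53569390 of mm7, also has 10 spots. MR 4-25 arrays were all above Neo arrays at 4 of the 7 positions unmasked on all arrays. On MR 4-25 3 the spots averaged −2.18 in the upper rows and −3.20 in the lower rows, and on Neo 3 −3.27 and −4.25. On the slide 1 arrays the upper rows minus the lower rows came to −0.21 to 0.03.

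Il13, a cytokine with effects close to those of Il4, had −1.90, −2.19 and −2.57 in MR 4-25 and −1.97, −1.70 and −4.56 in Neo. Without a consistent order of the lines, the difference of 0.52 ± 0.82 was small against its error, and Neo 3 was the lowest array. Il6, which acts through Il6ra and Il6st, had the largest difference of these cytokines, 1.26 ± 0.69 (adjusted p = 0.539). Its 10 spots per array averaged −4.07, −5.04 and −6.48 in MR 4-25 and −6.44, −5.87 and −7.05 in Neo, so both slide 1 arrays of MR 4-25 were above all Neo arrays and MR 4-25 3 was below 2 of them. It was above background on 2 MR 4-25 arrays and 1 Neo array.

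Il27, the helical subunit of a heterodimeric cytokine, had −0.58, −0.87 and 1.05 in MR 4-25 and −0.93, −1.04 and −0.23 in Neo, and differed by 0.61 ± 0.58. Il15, a growth factor of memory T and NK cells, differed by −0.62 ± 0.54. It had −1.43 and −1.51 on slide 1 and −3.26 on slide 2 in MR 4-25, against −1.48, −1.27 and −1.59 in Neo. That probe was designed to a shorter isoform, and the probe to the reference transcript was not above background on any array. Il23a, Il12a, Il12b, Il11 and Il3 differed by 0.73, 0.17, −0.37, 0.34 and 0.33, with adjusted p-values from 0.589 to 0.963. Il5, Il7, Il9, Il21 and Il31 were not above background on any array.

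Of 14 type 1 receptor chains 12 were tested and 0 passed, with differences from −0.49 to 0.70. Il12rb1, the chain shared by the receptors of Il12 and Il23, had 2.38, 2.37 and 2.20 in MR 4-25 and 1.90, 2.09 and 2.19 in Neo. The lines were 0.0042 apart at their nearest arrays, both of slide 2, and the difference was 0.25 ± 0.16 (adjusted p = 0.592). Il3ra, the ligand-binding chain for Il3, had 1.19, 1.08 and 1.71 in MR 4-25 and 0.97, 1.46 and 1.21 in Neo. These overlapped, and the difference was 0.11 ± 0.25. Il27ra, whose ligand holds Il27, was at 0.67 to 1.26 in MR 4-25 and 1.31 to 1.43 in Neo, a difference of −0.37 ± 0.20 (adjusted p = 0.545).

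Il11ra1, the receptor of Il11, was at 0.23 to 1.03 in MR 4-25 and 1.15 to 1.21 in Neo, a difference of −0.49 ± 0.25 (adjusted p = 0.492), and its second probe gave −0.34. Il6st, the signalling chain of the Il6 family, Il12rb2, the inducible chain of the Il12 receptor, and Il13ra1 differed by 0.29, 0.25 and 0.27. Il31ra, Il23r and Il9r differed by 0.37, 0.53 and 0.15. Il5ra was not above background on any array.

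Il15ra, which holds Il15 at the cell surface and presents it to neighbouring cells, was the receptor chain of this family with the smallest p. It had 0.10, 0.08 and 0.32 in MR 4-25, against −0.34, −0.59 and −0.52 in Neo, without overlap. The difference was 0.65 ± 0.16, or 1.57-fold (limma adjusted p = 0.178), with 0.55 within slide 1 and 0.84 within slide 2. It passed with array quality weights, which called 942 of all genes higher. The difference was then 0.52 (adjusted p = 0.0437), and Il15ra passed in none of 19 other settings (up to 0.519). A second, dimmer probe had −0.96, −1.07 and −0.32 in MR 4-25, against −1.68, −1.93 and −1.61 in Neo, a difference of 0.96. The probes are shown because they share 17 bases, in capitals, and so are not independent in sequence, though their spots lie in different rows, 520 and 206. Both span introns, the first at chr2:11663284-11669785 and the second at chr2:11662756-11669742 of mm7:
Il15ra, first probe: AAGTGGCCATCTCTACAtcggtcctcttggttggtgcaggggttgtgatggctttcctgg
Il15ra, second probe: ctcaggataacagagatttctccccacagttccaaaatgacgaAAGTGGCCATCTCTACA

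Il16, a chemoattractant that caspase 3 releases from a precursor and that binds Cd4, was lower in MR 4-25 without passing the test. It had −0.32, −0.80 and −0.17 in MR 4-25, against 0.46, 0.45 and 0.36 in Neo, without overlap. The difference was −0.85 ± 0.21, or 1.80-fold lower (limma adjusted p = 0.183), with −1.01 within slide 1 and −0.52 within slide 2. With array quality weights, which called 1074 of all genes lower, it was −1.15 and passed (adjusted p = 0.0137). It also passed with position matching (−1.26, adjusted p = 0.0396), and in none of 18 other settings (up to 0.570). Its second, dim probe had −4.30, −5.14 and −6.97 in MR 4-25, against −3.98, −4.13 and −4.58 in Neo, a difference of −1.24, and there MR 4-25 1 lay above Neo 3. Il4i1, a secreted amino acid oxidase, differed by 0.58 ± 0.37.

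Il8rb is an older name of Cxcr2, a chemokine receptor of neutrophils, and Il8ra of Cxcr1, which was not above background on any array. Il8rb had −5.15, −4.77 and −4.61 in MR 4-25, against −7.55, −6.08 and −5.81 in Neo, and was above background on 3 MR 4-25 arrays and 1 Neo array. The lines did not overlap, and the difference of 1.64 ± 0.50 did not pass (adjusted p = 0.255), with 1.85 within slide 1 and 1.21 within slide 2. It passed with array quality weights, which called 942 of all genes higher. The difference was then 2.11 (adjusted p = 0.0462), and Il8rb passed in none of 18 other settings (up to 0.519). With position matching the lines overlapped, with MR 4-25 3 at −6.22 and Neo 2 at −5.95. A second, dimmer probe of Il8rb was above background on 1 MR 4-25 array and 1 Neo array. It had −5.28, −6.94 and −6.97 in MR 4-25, against −8.13, −5.72 and −6.91 in Neo, a difference of 0.52 with overlap. Il20ra, a chain of class 2 receptors, differed by 1.65 ± 0.91 and Il28, an older name of the interferon lambda gene Ifnl3, by 0.09 ± 0.64. Il20ra had −4.84, −5.67 and −3.75 in MR 4-25, against −8.13, −5.32 and −5.76 in Neo, so the lines overlapped. Its −8.13 was the lowest level of these genes on Neo 1, and it was above background on 2 arrays of each line.

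The remaining 17 genes were not tested. Of these, 10 were above background on no array, 6 on 1 or 2 arrays, and Il1f10 was masked on MR 4-25 3. Il1f10 had −4.13 and −4.07 in MR 4-25 1 and 2, against −4.19, −3.67 and −4.27 in Neo. The 6 genes on 1 or 2 arrays were Il13ra2, Il1f6, Il1f9, Il1r2, Il1rl2 and Il28ra. Il13ra2, a decoy receptor for Il13, had −8.32, −7.34 and −3.88 in MR 4-25, against −8.13, −8.12 and −3.87 in Neo. Its signal on both slide 2 arrays stood well above that on the slide 1 arrays of either line. Of the 65 genes, less the masked one, 48.4% were well above background on all arrays and 15.6% on none, against 55.1% and 14.4% of all genes.

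Slides separated several of these genes more clearly than the lines did. The lines did not overlap for 8 that were higher and 4 that were lower in MR 4-25, against 11.2% and 13.1% of all genes. For 15 of the 48 tested genes both slide 2 arrays lay below all 4 slide 1 arrays, against 22.6% of all genes, and for 4 both lay above, against 9.65%. Of the 15, 13 have a single spot, and all 13 spots lie in the lower rows, from row 308 to row 514. The 4 genes with the opposite pattern, Il11, Il12a, Il27 and Il4i1, have their spots in the upper rows, from row 39 to row 138. Over the 43 tested genes with a single spot, 20 spots lay in the upper rows and 23 in the lower rows.

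Il6ra, the ligand-binding chain for Il6, has a probe in each region. The brighter probe, in row 449, had −0.97, −1.13 and −2.43 in MR 4-25, against −1.13, −1.0 and −4.50 in Neo. The dimmer probe, in row 113, had −3.83, −3.61 and −1.27 in MR 4-25, against −3.68, −3.76 and −2.24 in Neo. The slide 2 arrays were thus the lowest in the lower row and the highest in the upper row, while the slide 1 arrays of the lines were within 0.16 of each other on the brighter probe and 0.15 on the dimmer. The difference between the lines was 0.70 on the brighter probe (adjusted p = 0.845) and 0.32 on the dimmer.

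Over 6 lists of genes of these signalling pathways, related cytokines and T helper transcription factors, 3 of 97 tested genes passed, or 3.09%, against 1.23% of all genes. In the Jak and Stat list 0 of 11 tested genes passed, with a median of 0.12. Stat5a, a target of Jak kinases, was at 0.17, 0.33 and 0.89 in MR 4-25 and 1.77, 1.77 and 1.80 in Neo, a difference of −1.32 ± 0.23 (limma adjusted p = 0.0876). It passed in 5 of 20 alternative settings, among them the fit without MR 4-25 3, where it was −1.53 (adjusted p = 0.0293). Leaving out any other array gave adjusted p-values from 0.262 to 0.364, and the replicate block gave 0.204. Jak2 had the largest positive difference, 0.85 ± 0.24, and Jak1, Jak3 and Stat3 differed by −0.26, 0.53 and 0.46.

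Of 14 tested inhibitors of cytokine signalling 1 fell. Ptpn6, a tyrosine phosphatase that restrains cytokine receptors, had −2.23, −2.11 and −1.86 in MR 4-25, against −0.37, −0.43 and −0.21 in Neo. All MR 4-25 arrays were lower, with a difference of −1.73 ± 0.17 (adjusted p = 0.0199, against 0.112 with the replicate block), and averaged over its probes it was −0.51 and did not pass (0.286). Leaving out any array but MR 4-25 3 also ended that call, with adjusted p-values from 0.103 to 0.139, as did normexp (0.448) and position matching (0.0699). Socs1 and Socs3, which are induced by cytokines and block Jak kinases, differed by 0.81 ± 0.25 and 0.59 ± 0.32 without passing.

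In the list of Il1 and Toll receptor signalling 1 of 26 tested genes rose. Relb, a subunit of the NF-kappaB family, had 3.39, 3.03 and 3.44 in MR 4-25, against 1.87, 1.86 and 1.91 in Neo. The lines were well apart, with a difference of 1.41 ± 0.17 (adjusted p = 0.0352, against 0.149 with the replicate block), and the call was lost when any 1 of the 6 arrays was left out (adjusted p from 0.0625 to 0.208). It was also lost with normexp (0.178), median scaling (0.0517), no filter (0.0670) and slide 1 alone (0.114). Myd88 differed by 0.08 ± 0.14, and Nfkbie by −0.65 ± 0.17, the lowest of the list.

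In Il17 signalling 0 of 8 tested genes passed, with differences from −0.60 for Zc3h12a to 0.32 for Traf5. Among cytokines and receptors of these families under other names 0 of 20 passed, with Epo lowest at −1.95 ± 1.05 and Crlf2, a receptor chain for thymic stromal lymphopoietin, highest at 0.79 ± 0.18. Of 18 tested T helper transcription factors 1 rose. Prdm1, a transcriptional repressor that acts in late lymphocyte differentiation, had −1.29, −1.75 and −1.43 in MR 4-25, against −3.85, −4.07 and −4.34 in Neo. Its difference was 2.60 ± 0.21 (adjusted p = 0.0127, against 0.105 with the replicate block), and leaving out any array but MR 4-25 3 ended the call (adjusted p from 0.0691 to 0.109). Normexp (0.0835) and slide 1 alone (0.0649) ended it too.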

How the data were processed

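RNA of 3 MR 4-25 and 3 Neo samples was hybridised to Agilent arrays with Cy3. The authors deposited scanner output as background-corrected intensity values, made with Agilent Feature Extraction 9.5, per the submitters' processing notes. The deposited value table held the same intensity values, neither logged nor centred. Control spots were left out and outlier spots masked. The log2 signals were computed here, averaged over the spots of a probe and scaled to the array's 75th percentile. Probes entered the fit with signal well above background on 3 or more of the 6 arrays. The brightest probe stood for each gene; names followed RefSeq (GRCm38.p6), except that the 65 genes kept the file's name, which differs from RefSeq for 4. Probe positions come from the annotation in the scanner files, on build mm7.

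The comparison, MR 4-25 minus Neo, used lmFit and eBayes of limma 3.58.1 in R 4.3.3, and p-values were adjusted by Benjamini-Hochberg over 21342 genes. The code was tested on simulated data. Python 3.11.15 with matplotlib 3.10.9 drew the figures. The number of arrays limits the precision. The genes, lists and tests were chosen with earlier results of these data known. Array values are given for genes past the test or at an unadjusted p under 0.05 and for the 3 brightest. A fixed list of well-known members is named with differences, as are, from each pathway list, genes past the test, the largest difference in each direction and Jak1, Jak3, Stat3, Socs1, Socs3 and Myd88. Other genes given with array values were chosen after their values were seen. The result for 1 gene of the pathway lists is not reported here.

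The labels give the lines the same replicate numbers. Deviations from the mean of the line, taken over 21342 genes, correlated between same-numbered arrays at 0.29, 0.21 and 0.56, above the 0.1 set for treating numbers as pairs, so the replicate block is given where it changes a call. Crossed arrays of slide 1 correlated at 0.38 and 0.41, so numbers and slides are not separated by this check. Alternatives were normexp background correction with offset 50, median or quantile scaling, array quality weights, a block for the slide or for the replicate number, the arrays of slide 1 only, dropping the filter or asking for signal on all 6 arrays, averaging the probes of a gene or fitting each of them, a robust fit with an intensity trend, and leaving out 1 array at a time. Added after seeing the data were the median over spots and position matching, which matched the signals of 8 by 5 blocks of each array by quantile to those of the whole array.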

Additional observations from a re-analysis of the deposited data

How the results depend on the processing

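The counts over all genes moved by more than 1.5 times in 13 of 20 settings for genes that rose and 12 of 20 for genes that fell, those of interleukin genes in 5 and 8 of 20. Interleukin genes higher in MR 4-25 numbered 0, but 1 with quantile normalization, with the filter on all 6 arrays, with position matching and with the median over spots, each time Il18, and 3 with array quality weights (Il18, Il15ra and Il8rb). Those lower numbered 1, but 0 with normexp or the replicate block, 0 to 1 when an array was left out, and 2 with array quality weights (Il17re and Il16). With position matching the 1 lower gene was Il16, and Il17re was at −2.23 (adjusted p = 0.0613). The log2 difference of Il17re was −0.69 with normexp, −2.22 with the replicate block (adjusted p = 0.104) and −2.31 to −2.15 when an array was left out. Over all genes, 144 rose and 119 fell, against 53 and 24 with normexp, 289 and 235 with the filter on all 6 arrays, 367 and 351 with an intensity trend, 942 and 1074 with array quality weights, 1 and 0 with the replicate block, 61 and 63 within slide 1, and 0 to 92 and 0 to 131 when an array was left out. Leaving out MR 4-25 3 gave 92 and 131, MR 4-25 1 gave 4 and 5, MR 4-25 2 gave 4 and 2, Neo 3 gave 25 and 11, and Neo 1 or Neo 2 gave 0 and 0. Without a filter 92 rose, and with every probe fitted 186 fell. The median difference of the interleukin genes ranged from 0.11 to 0.75, with 0.75 under normexp and 0.15 without Neo 3. That of all genes moved in the same directions, to 0.34 with normexp and −0.12 without Neo 3. The replicate block changed no other call of a named interleukin gene. The cause of these changes was not tested. Repeated spots of dim probes varied most on MR 4-25 3 and Neo 1. Over probes with 10 spots and a mean intensity from 32 to 256, the median SD between spots was 0.17, 0.23 and 0.76 in MR 4-25 and 0.71, 0.10 and 0.22 in Neo. For brighter probes it was 0.16, 0.19 and 0.06 in MR 4-25 and 0.16, 0.10 and 0.15 in Neo. Position matching made that of the dim probes 0.31, 0.45 and 0.60 in MR 4-25 and 0.54, 0.22 and 0.39 in Neo, so it lowered their spread on 2 arrays and raised it on 4. It made that of the brighter probes 0.20, 0.20 and 0.20 in MR 4-25 and 0.20, 0.18 and 0.17 in Neo, higher on all 6 arrays.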

Other observations

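Several of these genes lie side by side in the genome. With probe starts at most 200000 bases apart, 27 of the 65 fell into 9 clusters on build mm7. Il17re and Il17rc are neighbours on chromosome 6, with 0 protein-coding genes between them in RefSeq GRCm38.p6 and 12918 bases between the starts of their probes. Il17re was at −4.19 ± 0.17 in MR 4-25 and −1.97 ± 0.08 in Neo, whereas Il17rc was at −0.54 ± 0.36 in MR 4-25 and −1.21 ± 0.29 in Neo (SD, n = 3 each). Il17re passed the test, and Il17rc, with a difference of 0.68 ± 0.26 (limma adjusted p = 0.366), did not. The difference between the 2 genes was not tested. Il4 and Il13 on chromosome 11, with 19488 bases between their probe starts, differed by 0.77 and 0.52, and Il5, 92781 bases further on, was not above background on any array. In the cluster of Il1 receptors on chromosome 1, Il1r1, Il1rl1 and Il18rap differed by −0.53, 0.32 and 0.48, and Il1r2, Il1rl2 and Il18r1 were too dim to test.

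Il18rap, Il23r and Il25 were at the lowest value of both slide 2 arrays, which is −6.97 on MR 4-25 3 and −8.42 on Neo 3, so all 3 had a difference of 1.45 within slide 2 from that lowest value alone. Within slide 1 they differed by −0.01, 0.07 and −0.05. Il28ra, an older name of Ifnlr1, was above background on 1 MR 4-25 array and 1 Neo array, with −2.77 in MR 4-25 3 and −3.40 in Neo 3. The other arrays had −8.32 and −7.45 in MR 4-25 and −6.29 and −6.46 in Neo, and its spot lies in row 98, where the slide 1 arrays are dim.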
